A study of Mus musculus with 28 samples.

Results

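The comparison described here is that of retroperitoneal fat from mice fed conjugated linoleic acid (CLA) with fat from mice on the control diet, both after 7 days of feeding. It rests on the 4 arrays whose titles name day 7, of 28 in the series: 2 titled as CLA and 2 titled as control. All mice were 9 weeks old, of a strain the labels spell C57BK/6J. The CLA diet held 0.5% of the trans-10 cis-12 isomer, and the control diet is given no further description. For each RNA the labels have both retroperitoneal pads of 10 mice pooled, and they do not say whether the 2 arrays of a diet hold separate pools. If they share a pool, the p-values below measure technical spread only. The design text speaks of 7 time points but lists 6 days without day 7, so the day was taken from the titles. The question put to these arrays is which transcripts of the fat pad differ between the diets after 7 days, and which of those differences depart from the other days sampled, which were days 1, 2, 3, 4, 10 and 17.

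White fat stores triglyceride in adipocytes, which make fatty acids and take them up from the blood, esterify them, and release them by lipolysis. The transcription factors PPARγ and C/EBPα hold the adipocyte programme in place, and insulin drives glucose uptake and lipid synthesis. The trans-10 cis-12 isomer of CLA is known to lower body fat in mice, and inflammation of the fat accompanies the loss. Fat also holds macrophages, other leukocytes, vessels and fibroblasts, and in mice some white depots can gain thermogenic adipocytes that burn lipid through the uncoupling protein UCP1.

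Values are log2 expression values, so a difference of 1 is a 2-fold difference. The 6 defining adipocyte markers measured lay between 7.27 and 14.01 on the 4 arrays, so the markers of the labelled tissue were present in both diets. Across genes the arrays of a diet correlated with r = 0.992 for CLA and r = 0.99 for control, within the range of the 14 groups of the series (0.979 to 0.995). Between the arrays of a diet, 98 genes differed by more than 1 in CLA and 249 in control. The arrays did stand apart in 2 respects. CLA array 1 had a mean of 5.08 over 15 skeletal muscle genes, below every other array of the series, against 7.98 on CLA array 2 and 7.54 and 8.21 on the control arrays. Control array 1 had the highest 3′ minus 5′ signal of day 7 for the array's own actin and Gapdh probe sets, a measure of RNA integrity in which a higher value means less full-length RNA. It read 1.87 for actin and 1.04 for Gapdh on that array, against 0.81 and 0.43 on CLA array 1, 1.23 and 0.34 on CLA array 2, and 1.11 and 0.23 on control array 2. Malat1, a nuclear non-coding RNA, read 5.37 on control array 1 against 8.63 on control array 2, and Actb, cytoplasmic actin, read 10.84 against 12.98; both genes were picked after their values were seen. Outside day 7, array 1 of the control group of day 2 stood apart from array 2 in some genes that CLA raised, with Mmp12 at 8.28 against 3.87 on array 2 of that group, Rgs1 at 7.98 against 4.44 and Adam8 at 8.45 against 4.86. It enters the contrasts of day 7 with the other days, which are also given without it. Through the spread pooled over all groups it also enters the test of CLA against control on day 7. What part these features have in the results was not tested, so counts that move by more than 1.5 times without an array are given with it.

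After 7 days of CLA the fat pad held more macrophage, lysosomal and cell cycle transcripts and less of those of adipocyte lipid metabolism. Of 18193 genes tested, 3151 changed at an adjusted p under 0.05 (limma, Benjamini-Hochberg over all genes). That is 17.3% of genes, with 1591 higher in CLA (8.75%) and 1560 lower (8.57%). Counts of list members below are to be read beside these shares. Of the changed genes, 1019 rose and 763 fell by at least 2-fold. Large rises outnumbered large falls: 88 genes rose by 3 or more on the log2 scale and 15 fell by as much. The median difference over all genes was -0.04 and the median SE was 0.19. Without CLA array 1 the count was 2094 genes.

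**Figure D1:**
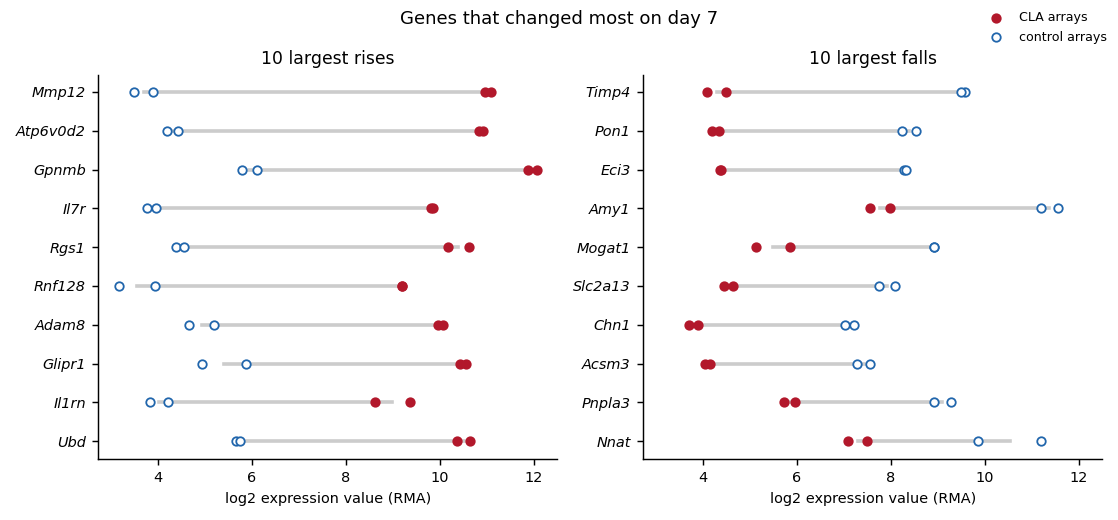
Log2 expression values of the 10 largest rises (left) and the 10 largest falls (right) on day 7. Filled points are the 2 CLA arrays, open points the 2 control arrays, and grey lines join the means. Genes in which the points of the diets overlap were left out when these were picked.

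Genes of macrophages and of their lysosomes led the rises. Mmp12, the macrophage elastase, read 11.10 and 10.96 on the CLA arrays, against 3.49 and 3.90 on the control arrays. The CLA arrays lay close together and far above both control arrays, a 161-fold difference (7.33 ± 0.77 on the log2 scale, n = 2 arrays per diet, limma adjusted p = 1.57e-06). Here and below, ± gives the SE from the limma model of all 28 arrays. It pools the spread within the 14 groups of diet and day and is not the spread of the day 7 arrays alone. Atp6v0d2, a subunit of the proton pump that acidifies lysosomes, read 10.84 and 10.91 on the CLA arrays, against 4.43 and 4.19 on the control arrays, a difference of 6.57 ± 0.38. Gpnmb, a lysosomal glycoprotein of lipid-laden macrophages, read 11.87 and 12.06 on the CLA arrays, against 5.80 and 6.10 on the control arrays, a difference of 6.01 ± 0.34. For all 3 genes the diets lay far apart. Il7r, the interleukin-7 receptor, rose by 5.96, and Rgs1, a brake on chemokine receptor signalling in leukocytes, by 5.92. Rnf128, a ubiquitin ligase, rose by 5.64, Adam8, a metalloproteinase of myeloid cells, by 5.09, and Glipr1 by 5.08. Il1rn, the antagonist of the interleukin-1 receptor, rose by 4.97 and Ubd, a ubiquitin-like modifier induced by inflammatory cytokines, by 4.80. A further and dimmer probe set gave 2.98 for Gpnmb, 0.69 for Glipr1 and 4.59 for Il7r.

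Genes of fat cells and lipid enzymes were among the 10 largest falls. Timp4, a metalloproteinase inhibitor made by adipocytes, read 4.50 and 4.09 on the CLA arrays, against 9.59 and 9.49 on the control arrays, a 37.9-fold difference (-5.25 ± 0.33, adjusted p = 4.32e-09). The diets did not overlap, which the choice of these genes required, and a second probe set of Timp4 fell as well, by 3.36. Pon1, a lactonase, fell by 4.12, and Eci3, an isomerase of unsaturated fatty acid breakdown, by 3.94. Amy1, an amylase, fell by 3.61, and Mogat1, which builds diglyceride, by 3.42. The inositol transporter gene Slc2a13 fell by 3.38, the Rac regulator Chn1 by 3.32 and the acyl-CoA synthetase Acsm3 by 3.32. Pnpla3, a lipase-like protein of lipid droplets, fell by 3.25, and Nnat, a small membrane protein, by 3.23. A dimmer probe set of Chn1 gave -0.41.

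**Figure D2:**
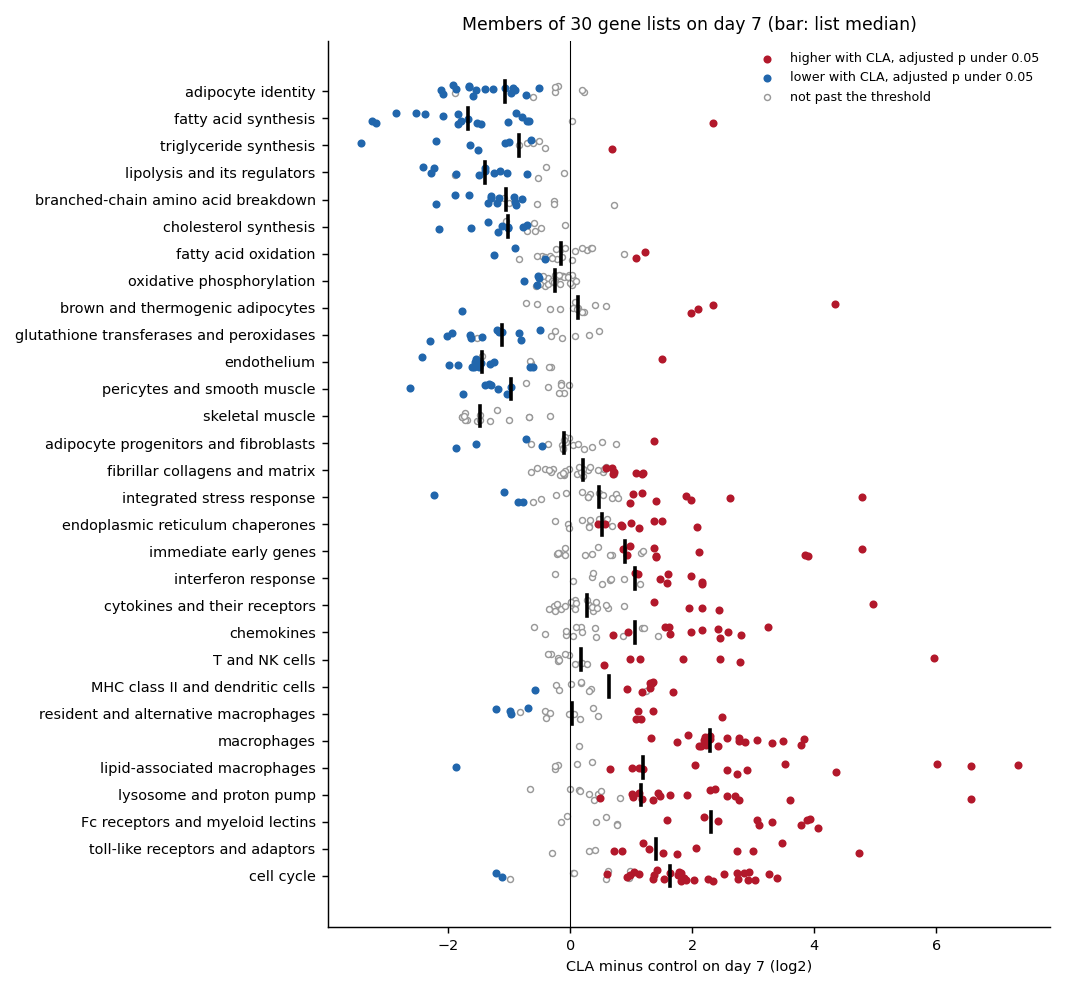
CLA minus control on day 7 (log2) for each measured member of 30 gene lists. Filled points passed adjusted p under 0.05, open points did not, and each black bar is the list median; the medians of the lipid synthesis and lipolysis lists lie left of 0 and those of the macrophage, lysosome and cell cycle lists right of it.

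Genes of adipocyte identity were lower as a group. Of 23 measured genes, 16 fell and 0 rose, with a median of -1.07 against -0.04 over all genes. Lep, the satiety hormone leptin, read 8.02 and 8.31 on the CLA arrays, against 10.39 and 10.17 on the control arrays, a fall of 2.12 (adjusted p = 7.92e-05). Slc2a4, the insulin-dependent glucose transporter GLUT4, read 7.27 and 7.85 on the CLA arrays, against 9.34 and 9.52 on the control arrays, a fall of 1.87. The diets did not overlap for either gene. Klf15, a regulator of adipocyte metabolism, fell by 2.08, Tmem120b by 1.93, Mest by 1.66 and Acvr1c, an activin receptor, by 1.66. The core regulators moved less. Pparg read 9.49 and 9.84 on the CLA arrays, against 10.53 and 10.61 on the control arrays, a fall of 0.91, and Cebpa read 10.30 and 10.11 on the CLA arrays, against 10.97 and 11.37 on the control arrays, a fall of 0.96. Adipoq, the hormone adiponectin, read 12.79 and 12.79 on the CLA arrays, against 13.63 and 13.82 on the control arrays, a fall of 0.94, while Retn, resistin, fell by 1.58. In pooled tissue, fewer cells of a type and less RNA per cell cannot be told apart. Of the list, 9 fell without CLA array 1 and 9 without control array 2. Acvr1c (-1.77) and Cebpa (-1.06) missed the threshold without CLA array 1. Acvr1c (-1.55) and Cebpa (-0.87) missed the threshold without CLA array 2. Acvr1c (-1.39) and Cebpa (-0.77) missed the threshold without control array 2.

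Genes of fatty acid synthesis were lower nearly throughout. Of 19 genes 17 fell and 1 rose (median -1.68). Elovl6, which lengthens palmitate, read 8.09 and 8.67 on the CLA arrays, against 11.62 and 11.51 on the control arrays, a fall of 3.19 (adjusted p = 3.33e-08). Acaca, the rate-limiting acetyl-CoA carboxylase, fell by 2.38, Acss2, which makes acetyl-CoA from acetate, by 2.53 and Mlxipl, the glucose-sensing factor ChREBP, by 2.85. Fasn, fatty acid synthase, read 11.40 and 11.63 on the CLA arrays, against 13.20 and 13.52 on the control arrays, a fall of 1.84. Srebf1, the lipogenic factor SREBP-1, fell by 1.46, with 8.83 and 10.04 on the CLA arrays and 10.83 and 10.95 on the control arrays, the CLA arrays being far apart. Scd1, the desaturase, is close to the top of the scale and fell by 0.79, while a less bright probe set of it fell by 1.94. The gene that rose was Elovl3, an elongase of brown fat and skin, which read 5.58 and 6.87 on the CLA arrays, against 3.84 and 3.94 on the control arrays, a difference of 2.33 ± 0.42. The dimmest probe set of Elovl6 gave -0.20. Srebf1 (-0.85) missed the threshold without CLA array 1. Srebf1 (-1.40) missed the threshold without control array 2.

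Genes of triglyceride synthesis and of lipolysis were both lower. In triglyceride synthesis 7 of 13 genes fell and 1 rose (median -0.84). Besides Mogat1, falls were found for Pck1, the enzyme of glycerol formation, at -2.20, Lpin1, a phosphatidate phosphatase, at -1.64, Dgat2, which forms triglyceride, at -1.51 and Agpat2 at -1.07. Lpin2, a relative of Lpin1, rose by 0.68. In lipolysis 11 of 15 genes fell and none rose (median -1.40). Pnpla2, the triglyceride lipase ATGL, read 10.13 and 10.28 on the CLA arrays, against 11.17 and 12.04 on the control arrays, a fall of 1.40, though its other probe set gave 0.20. Lipe, hormone-sensitive lipase, read 8.38 and 8.39 on the CLA arrays, against 9.58 and 10.96 on the control arrays and missed the threshold (difference -1.89 ± 0.71, adjusted p = 0.0824), with the control arrays themselves 1.38 apart. Receptors that act on lipolysis were lower too. Mc2r, the corticotropin receptor, fell by 2.28, Hcar1, the lactate receptor, which restrains lipolysis, by 2.23 and Oxtr, the oxytocin receptor, by 2.42 on the log2 scale. Pde3b, through which insulin restrains lipolysis, fell by 1.50. The list thus mixes genes that drive lipolysis with genes that restrain it, and its count gives no direction for the rate of lipolysis. Lpl, lipoprotein lipase, read 13.18 and 13.34 on the CLA arrays, against 13.43 and 13.50 on the control arrays, a difference of -0.20 ± 0.13 that did not pass (adjusted p = 0.379). Of triglyceride synthesis genes, 0 rose without CLA array 2 and 0 without control array 2. Of lipolysis genes, 7 fell without control array 2. Agpat2 (-0.87) and Pnpla2 (-1.32) missed the threshold without CLA array 1. Lpin2 (0.61) and Pnpla2 (-1.48) missed the threshold without CLA array 2. Agpat2 (-0.79), Lpin2 (0.41) and Pnpla2 (-0.96) missed the threshold without control array 2. Lpin2 (0.68) missed the threshold with the day 7 arrays alone. Pnpla2 (-0.60) missed the threshold with the mean of probe sets.

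Lipid droplet proteins split in direction, with 5 of 13 lower and 2 higher. Among those that fell were Plin4 by 1.86, Cidec, which fuses droplets, by 1.54, G0s2, an inhibitor of ATGL, by 1.16 and Fitm2 by 0.94. Plin2, the droplet coat found in many cell types, read 12.95 and 12.92 on the CLA arrays, against 12.32 and 12.23 on the control arrays, a rise of 0.66. Hilpda, a droplet protein induced by hypoxia, rose by 1.13. Of this list, 0 rose without CLA array 1, 1 without CLA array 2, 1 without control array 1 and 0 without control array 2. For the members that fell, 2 fell without CLA array 1. Cidec (-1.45), G0s2 (-0.87), Fitm2 (-0.76), Plin2 (0.65) and Hilpda (0.88) missed the threshold without CLA array 1. Cidec (-1.65) and Plin2 (0.68) missed the threshold without CLA array 2. Plin2 (0.70) missed the threshold without control array 1. Cidec (-1.02), Plin2 (0.61) and Hilpda (1.07) missed the threshold without control array 2. Cidec (-1.54) missed the threshold with trend and robust moderation.

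The list of insulin signalling and glucose use was split, and genes of branched-chain amino acid breakdown were lower. Among 23 genes of insulin signalling and glucose use, 9 fell and 5 rose (median -0.79). Gys2, a glycogen synthase, fell by 2.25, Pfkfb3, an activator of glycolysis, by 1.64 and the insulin receptor substrate gene Irs3 by 1.66. Trib3, which binds the kinase AKT and is induced by stress, rose by 2.62, and Hk3, a hexokinase of leukocytes, by 2.31. In breakdown of branched-chain amino acids, 12 of 18 genes fell and none rose (median -1.04). Ivd, of the leucine pathway, fell by 2.19, Mccc2 by 1.90, Aldh6a1, of the valine pathway, by 1.66, and Pccb, of propionate use, by 1.35. Mccc1 and Acadsb gave -1.29 and -1.30. Of insulin genes, 3 rose without CLA array 2 and 3 without control array 1. Irs3 (-1.28) missed the threshold without CLA array 1. Mccc2 (-1.67) missed the threshold without control array 1.

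Mitochondrial lists are given beside the 8.75% of all genes that rose and the 8.57% that fell. In the citrate cycle and pyruvate entry 8 of 21 genes fell (median -0.54). Pcx, pyruvate carboxylase, fell by 2.13, Suclg2 by 1.01, Pdk1 by 0.99, and Pdha1 and Mpc1, which bring pyruvate into the cycle, by 0.94 and 0.94. Dlat fell by 0.68. In oxidative phosphorylation 4 of 28 genes fell (Sdha -0.76, Ndufb3 -0.55, Atp5j -0.53, Ndufs1 -0.51) and none rose (median -0.25). Fatty acid oxidation had 2 of 23 genes higher and 3 lower (median -0.15). Cpt1a, which admits long-chain fatty acids into mitochondria, read 9.68 and 9.16 on the CLA arrays, against 8.09 and 8.31 on the control arrays, a rise of 1.22, and Acot1 rose by 1.08. Ehhadh, a peroxisomal enzyme, fell by 1.25, Eci1 by 0.90 and Etfa by 0.41. Of the fatty acid oxidation list, 1 fell without control array 2. Of the citrate cycle list, 3 fell without CLA array 1, 5 without control array 1 and 5 without control array 2. Of the oxidative phosphorylation list, 1 fell without CLA array 1, 2 without control array 1 and 2 without control array 2. Pcx (-1.98), Mpc1 (-0.89), Dlat (-0.59), Ndufb3 (-0.35), Atp5j (-0.41), Ndufs1 (-0.39) and Etfa (-0.38) missed the threshold without CLA array 1. Etfa (-0.45) missed the threshold without CLA array 2. Dlat (-0.63), Ndufb3 (-0.53), Ndufs1 (-0.41) and Etfa (-0.41) missed the threshold without control array 1. Pcx (-1.86), Mpc1 (-0.82), Ndufb3 (-0.57), Atp5j (-0.45), Eci1 (-0.81) and Etfa (-0.41) missed the threshold without control array 2. Ndufb3 (-0.55), Atp5j (-0.53), Ndufs1 (-0.51) and Etfa (-0.41) missed the threshold with the day 7 arrays alone. Etfa (-0.36) missed the threshold under quantile normalisation.

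Some genes of brown adipocytes were higher while those of white adipocytes were lower. Ucp1, the uncoupling protein of thermogenic adipocytes, read 10.46 and 11.68 on the CLA arrays, against 7.59 and 5.88 on the control arrays, a 20.2-fold difference (4.33 ± 0.57, adjusted p = 1.83e-05). The diets do not overlap, but the arrays within each diet are more than 1 apart. Cox7a1, a cytochrome oxidase subunit of muscle and brown fat, read 8.47 and 9.76 on the CLA arrays, against 7.30 and 6.73 on the control arrays, a rise of 2.10. Elovl3, given above, and Fgf21, a stress and thermogenic hormone that rose by 1.98, also belong to the list, in which 4 of 17 genes rose and 1 fell. The gene that fell was Ucp3, the uncoupling protein of muscle, by 1.78. The median of the list was 0.13 and 12 of the 17 members did not pass. Ppargc1a, the coactivator PGC-1α, read 5.10 and 4.77 on the CLA arrays, against 4.56 and 4.50 on the control arrays (difference 0.41 ± 0.25, adjusted p = 0.338). Cidea, a droplet protein of brown fat, read 8.98 and 10.58 on the CLA arrays, against 9.14 and 9.97 on the control arrays, so that the arrays of the diets overlap and the difference of 0.23 ± 0.41 did not pass (adjusted p = 0.82).

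The mean over the 17 brown and thermogenic genes was 6.00 and 6.57 on the CLA arrays, against 5.83 and 5.69 on the control arrays. CLA array 1, the lower of the CLA arrays in this mean, is also the array low in skeletal muscle genes, and the part of muscle RNA in these values was not tested. The difference of Ucp1 was 4.95 without CLA array 1 and 3.73 without CLA array 2. That of Cox7a1 was 2.75 without CLA array 1 and 1.46 without CLA array 2. None of the 15 skeletal muscle genes passed the threshold, while all had differences below 0 with a median of -1.49. Tnnc2, a troponin, read 5.94 and 10.16 on the CLA arrays, against 9.62 and 10.01 on the control arrays, and Myl1, a myosin light chain, read 8.46 and 10.46 on the CLA arrays, against 10.49 and 11.07 on the control arrays. For both genes CLA array 1 was the low array. Of the muscle list, 11 fell without CLA array 2.

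**Figure D3:**
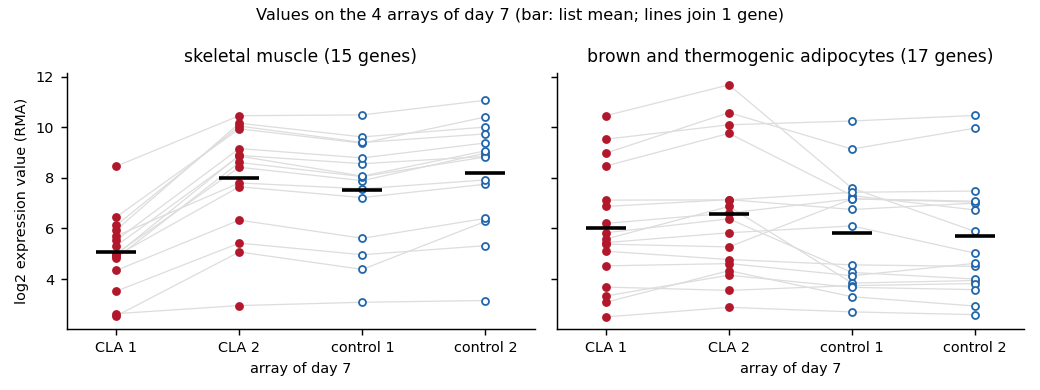
Log2 values of 15 skeletal muscle genes (left) and 17 brown and thermogenic genes (right) on the 4 arrays of day 7, with filled points for CLA and open points for control. Grey lines join the values of a gene and black bars are list means; CLA array 1 is low in muscle genes and CLA array 2 is not.

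Genes of cholesterol synthesis were lower, and some of cholesterol efflux and storage were higher. Of 15 synthesis genes 9 fell and none rose (median -1.01). Fdft1, squalene synthase, fell by 2.15, Pmvk by 1.62, Idi1 by 1.34, Sc5d by 1.18, Sqle, the squalene epoxidase, by 1.12 and Lss by 1.02. In efflux and storage 5 of 16 genes rose and 1 fell. Lipa, the acid lipase of lysosomes, read 10.84 and 10.69 on the CLA arrays, against 8.37 and 7.75 on the control arrays, a rise of 2.71. Abcg1, a cholesterol exporter, rose by 1.72, Npc1, which moves cholesterol out of lysosomes, by 1.57, Apoc2 by 1.07 and Mylip, which degrades the LDL receptor, by 0.66, while Apoc1 fell by 1.97. Of the efflux genes, 3 rose without CLA array 1, 2 without CLA array 2 and 2 without control array 1. Abcg1 (1.71) and Mylip (0.60) missed the threshold without CLA array 1. Abcg1 (1.73), Apoc2 (0.60) and Mylip (0.71) missed the threshold without CLA array 2. Abcg1 (1.71), Npc1 (1.29) and Mylip (0.47) missed the threshold without control array 1. Abcg1 (1.72) missed the threshold without control array 2. Mylip (0.63) missed the threshold under quantile normalisation. Mylip (0.62) missed the threshold under median centring.

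Macrophage genes rose almost without exception. Of 21 measured genes 20 rose and none fell, against 8.75% of all genes, with a median of 2.30. Adgre1, the macrophage marker F4/80, read 11.38 and 11.69 on the CLA arrays, against 8.22 and 8.23 on the control arrays, and Cd68, a marker of phagocytes, read 11.83 and 11.48 on the CLA arrays, against 8.18 and 8.15 on the control arrays. Both CLA arrays lay above both control arrays for either gene, a rise of 3.31 for Adgre1 and 3.49 for Cd68. Mpeg1, a pore-forming protein of phagosomes, rose by 3.83, Fcgr1, the high-affinity IgG receptor, by 3.78, Tyrobp, the adaptor of TREM2, by 3.07 and Cybb, the oxidase subunit, by 2.86.

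The list of lipid-associated macrophages, a state described in obese fat, had 13 of 19 genes higher and 1 lower (median 1.20). Trem2, the lipid-sensing receptor of that state, read 9.54 and 8.90 on the CLA arrays, against 4.85 and 4.87 on the control arrays, a rise of 4.36, and Itgax, the integrin CD11c, read 8.16 and 8.29 on the CLA arrays, against 4.83 and 4.59 on the control arrays, a rise of 3.52. Both genes had CLA values well clear of the control values. A dimmer probe set of Trem2 gave 0.20. The gene that fell was Acp5, tartrate-resistant acid phosphatase, by 1.88. Resident and alternatively activated macrophages gave no common direction, with 5 of 18 genes higher and 4 lower (median 0.03). Arg1, arginase, rose by 2.50, Clec10a by 1.36, Stab1 by 1.16 and Mrc1, the mannose receptor, by 1.12. Cd209d and Ccl24 fell by 1.22 and 0.98. Of the resident list, 3 rose without CLA array 1, 3 without CLA array 2, 2 without control array 1 and 2 without control array 2. For members that fell, 2 fell without CLA array 1 and 2 without control array 1. Arg1 (2.12) and Ccl24 (-0.88) missed the threshold without CLA array 1. Arg1 (2.87) and Stab1 (0.94) missed the threshold without CLA array 2. Arg1 (2.40), Stab1 (1.02) and Ccl24 (-0.82) missed the threshold without control array 1. Arg1 (2.58) and Mrc1 (0.89) missed the threshold without control array 2. Arg1 (2.50) missed the threshold with trend and robust moderation.

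Genes of phagocyte functions rose with the macrophage markers. In the lysosome and proton pump list 17 of 26 genes rose and none fell (median 1.16). Gla, α-galactosidase A, read 8.31 and 7.96 on the CLA arrays, against 4.68 and 4.39 on the control arrays, a rise of 3.60. The cathepsins Ctss and Ctsk rose by 2.77 and 2.58, and Gusb, β-glucuronidase, by 2.38. Of the phagocyte oxidase and killing genes 7 of 9 rose (median 1.94), among them Slc11a1, a phagosomal metal transporter, by 2.94, Cyba by 2.88, Ncf4 by 2.46, Lyz2, lysozyme, by 1.94 and Rac2 by 1.82. Among Fc receptors and myeloid lectins 10 of 16 rose (median 2.31). Fcgr4, an activating IgG receptor, rose by 4.07, Clec7a, the β-glucan receptor dectin-1, by 3.94, Clec4d by 3.88, Clec4a2 by 3.31 and Pirb by 3.09. Toll-like receptors and adaptors followed, with 11 of 14 higher (median 1.40): Tlr13 by 4.74, Tlr1 by 3.46, Tlr8 by 3.00, Tlr7 by 2.73, Tlr2 by 2.07 and the coreceptor gene Cd14 by 1.75.

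Lysosomal genes are known to share an E-box through which the factor TFEB acts, and the promoters of 2 that rose are shown for that reason. Sequences are RefSeq promoters on GRCm38.p6, 5′ to 3′ on the strand of the gene. Capitals mark TCACGTG on either strand, with overlapping matches joined.
Gla: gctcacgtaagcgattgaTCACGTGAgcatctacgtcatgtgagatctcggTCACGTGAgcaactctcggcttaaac
Atp6v1a: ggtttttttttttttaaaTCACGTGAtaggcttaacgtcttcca
The Gla window, chrX:134601175-134601251 on the minus strand, holds the letters at 2 places between 228 and 188 bases before the start. The Atp6v1a window, chr16:44139366-44139409 on the minus strand, holds them once. In the 250 bases before the start, 7 of 22 list genes with a promoter in the table held TCACGTG, against 3.58% of 27025 genes in the table. Of the 7 holders 5 rose, and of the 15 others 9 rose. Atp6v1a, a pump subunit named for this sequence after its value was seen, read 10.67 and 10.54 on the CLA arrays, against 9.43 and 8.91 on the control arrays, a rise of 1.44.

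Markers of other leukocytes moved less widely. In the MHC class II and dendritic cell list 7 of 16 genes rose and 1 fell (median 0.64). H2-DMa rose by 1.68, Cd86, a costimulatory ligand, by 1.36, H2-Aa by 1.34, H2-Eb1 by 1.31 and Batf3 by 1.31. Itgae, an integrin of tissue lymphocytes and dendritic cells, fell by 0.58. The defining dendritic cell genes Flt3, Zbtb46 and Ccr7 did not pass, with values between 3.21 and 5.88 over the 4 arrays. Of this list, 0 fell without CLA array 1, 0 without control array 1 and 0 without control array 2. Itgae (-0.34) missed the threshold without CLA array 1. Itgae (-0.52) missed the threshold without control array 1. Itgae (-0.65) missed the threshold without control array 2. Itgae (-0.58) missed the threshold with the day 7 arrays alone. Itgae (-0.58) missed the threshold with trend and robust moderation. Itgae (-0.58) missed the threshold with the replicate block within each day.

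The T cell receptor genes Cd3e and Cd3d, like S100a8 and S100a9 among neutrophil genes, are given as defining markers and not for a change. In the T and NK cell list 7 of 18 genes rose and none fell (median 0.18). Those that rose include the cytotoxic genes Gzma, by 2.46, Klrd1, by 2.79, Nkg7, by 1.14, and Gzmb, by 0.97. Il7r, given above, and Cd28, which rose by 1.84, also belong to it. Cd3e read 4.90 and 5.01 on the CLA arrays, against 5.10 and 5.20 on the control arrays (difference -0.20 ± 0.20). Cd3d read 5.03 and 4.34 on the CLA arrays, against 4.72 and 4.50 on the control arrays (difference 0.07 ± 0.24). Neither passed. In the B and plasma cell list 4 of 14 rose (median -0.01): Blnk by 4.19, Sdc1 by 2.98, Prdm1 by 2.02 and Cd22 by 1.98. Macrophages are known to express Blnk, Sdc1 and Prdm1 as well. Both defining B cell genes measured, Ms4a1 and Cd79a, lay between 3.00 and 4.08 on the 4 arrays and neither passed. Gzmb (0.68) missed the threshold without CLA array 2. Gzmb (0.71) missed the threshold without control array 2.

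Neutrophil genes gave 2 of 13 higher and 1 lower (median -0.17), beside 8.75% of all genes that rose and 8.57% that fell. Lcn2 rose by 2.65 and Csf3r by 1.11, while Mmp9 fell by 1.00. S100a8, an abundant neutrophil protein, read 6.29 and 6.14 on the CLA arrays, against 7.92 and 5.70 on the control arrays. Its partner S100a9 read 4.76 and 5.14 on the CLA arrays, against 7.97 and 4.28 on the control arrays. Control array 1 was the highest of the 4 arrays for both genes. Of mast cells and eosinophils 3 of 14 genes rose (median 0.07), all of them mast cell genes: Cpa3 by 1.32, Fcer1a by 1.17 and Cma1 by 1.12. Of the neutrophil list, 2 fell without control array 2. Fcer1a (1.05) missed the threshold without CLA array 1. Fcer1a (0.84) missed the threshold without control array 2.

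Several chemokine genes rose. Of 26 chemokine and receptor genes 12 rose and none fell (median 1.06). Ccl2, which draws monocytes, read 9.11 and 9.58 on the CLA arrays, against 6.61 and 5.59 on the control arrays, a rise of 3.25, and its relative Ccl7 rose by 2.42. Cxcr4 rose by 2.80, Ccl9 by 2.59, Ccl3 by 2.45 and Cxcl10, an interferon-induced chemokine, by 2.16. Of 27 cytokine and receptor genes 5 rose and none fell (median 0.28), against 8.75% of all genes that rose. These were Il1rn, Il10ra (2.44), Tnfrsf1b (2.15), Tgfb1 (1.95) and Tnfrsf12a (1.37), which are antagonists, receptors or a growth factor rather than inflammatory ligands. Tnf read 5.25 and 5.37 on the CLA arrays, against 5.15 and 4.86 on the control arrays (difference 0.30 ± 0.15). Il6 read 3.03 and 3.01 on the CLA arrays, against 3.05 and 2.91 on the control arrays (difference 0.04 ± 0.25). Neither passed, and Il6 lay near the bottom of the scale on every array of day 7. Of the chemokine list, 7 rose without control array 2. Ccl7 (2.29) and Tgfb1 (2.01) missed the threshold without CLA array 1. Ccl7 (2.56) and Tgfb1 (1.89) missed the threshold without CLA array 2. Tgfb1 (1.43) missed the threshold without control array 1. Ccl2 (2.73) and Ccl7 (2.12) missed the threshold without control array 2. Tgfb1 (0.97) missed the threshold with the mean of probe sets. Tgfb1 (1.95) missed the threshold with trend and robust moderation.

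Of 15 feedback regulators of inflammatory signalling, 6 rose and 1 fell (median 0.86). Tnfaip2 rose by 2.91, Nfkbie by 1.66, Tnfaip3, the deubiquitinase A20, by 1.32, Bcl3 by 1.24 and Birc3 by 1.17, and Cish, a target of STAT5, fell by 1.27. Acute phase genes split, with 3 of 15 higher and 4 lower. Ptx3, a pentraxin, rose by 3.45 and Saa3 by 1.85. Orm1 fell by 2.12, Serpina3n by 2.06 and Steap4 by 0.94, genes that adipocytes also express. Prostaglandin and leukotriene enzymes and receptors split as well, with 4 of 17 higher and 2 lower. Hpgds, the haematopoietic prostaglandin D synthase, rose by 3.70, Ptger2 by 2.44, Tbxas1 by 1.91 and Alox5ap by 1.89. Ptger3, the prostaglandin E receptor of adipocytes, fell by 2.50 and Ptges by 2.28. Nfkbie (1.29), Bcl3 (0.94) and Saa3 (1.49) missed the threshold without CLA array 2. Nfkbie (0.97), Bcl3 (1.00) and Saa3 (1.30) missed the threshold without control array 2.

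Interferon-response genes rose in part, 8 of 17 with none lower (median 1.06). Oas1a, an antiviral synthetase, read 9.68 and 9.44 on the CLA arrays, against 7.56 and 7.23 on the control arrays, a rise of 2.17. Oasl1 rose by 1.99, Ifit2 by 1.60, Mx1 by 1.58 and Oasl2 by 1.47. The interferon-stimulated response element is known to drive such genes, and promoters of 2 genes that rose are shown with its core in capitals. The core was taken as GAAA, 2 bases of any kind and GAAA, on either strand, and overlapping matches are joined.
Oas1a: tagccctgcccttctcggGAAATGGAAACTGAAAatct
Cxcl10: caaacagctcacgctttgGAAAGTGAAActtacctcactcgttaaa
They lie at chr5:120907526-120907563 and chr5:92349075-92349120 on GRCm38.p6, both on the minus strand. These letters occur in 7 of 13 list promoters, against 3.46% of all genes in the table, and 2 of the 7 genes rose on day 7 against 4 of the 6 without them. Of the list, 5 rose without CLA array 2. Mx1 (1.11) missed the threshold without CLA array 2. Mx1 (1.67) missed the threshold without control array 1. Mx1 (1.50) missed the threshold without control array 2.

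Of 22 immediate early genes 10 rose and none fell (median 0.90). Atf3, a stress-induced repressor, read 9.80 and 9.88 on the CLA arrays, against 4.89 and 5.21 on the control arrays, a 27.7-fold rise (4.79 ± 0.36). Egr2 rose by 3.90, Fos by 3.85, Junb by 2.10, Fosl1 by 1.42 and Egr1 by 1.41. Among 11 MAP kinase phosphatases 3 rose, Dusp5 by 1.11, Dusp1 by 0.94 and Dusp6 by 0.91. Of immediate early genes, 5 rose without CLA array 2 and 5 without control array 2. Of the phosphatases, 1 rose without CLA array 1 and 1 without control array 2. Dusp5 (0.96) and Dusp6 (0.78) missed the threshold without CLA array 1. Fosl1 (1.07), Dusp1 (0.86) and Dusp6 (1.04) missed the threshold without CLA array 2. Dusp5 (1.02) missed the threshold without control array 1. Fosl1 (1.18), Dusp1 (0.89) and Dusp6 (0.65) missed the threshold without control array 2. Dusp6 (0.86) missed the threshold under quantile normalisation.

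The integrated stress response, in which the factor ATF4 is translated when protein synthesis is slowed, was split: 8 of 25 genes rose and 4 fell (median 0.48). Ddit3, the factor CHOP, read 8.65 and 8.52 on the CLA arrays, against 6.81 and 6.56 on the control arrays, a rise of 1.90, beside the rises of Atf3, Trib3 and Fgf21. Among the 4 that fell were Phgdh, of serine synthesis, by 2.23 and Asns, asparagine synthetase, by 1.08. Targets of this response carry a C/EBP-ATF element, TGATGNAA, and the promoters of a gene that rose and a gene that fell are shown with those letters, on either strand, in capitals.
Atf3: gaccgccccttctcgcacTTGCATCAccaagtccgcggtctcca
Asns: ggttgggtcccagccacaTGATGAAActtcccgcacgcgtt
They lie at chr1:191183418-191183461 and chr6:7693210-7693250 on GRCm38.p6, both on the minus strand. Both hold the letters although the genes moved in opposite directions. The letters occur in 7 of 23 list promoters, against 3.91% of all genes in the table. Of these 7 genes 3 rose, against 5 of the 16 others.

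Chaperones of the endoplasmic reticulum rose moderately, 9 of 20 with none lower (median 0.53). Hspa5, the chaperone BiP, read 12.57 and 12.63 on the CLA arrays, against 11.59 and 11.60 on the control arrays, a rise of 1.00 with no overlap. Sdf2l1 rose by 2.08, Pdia3 by 1.51, Manf by 1.37, Creld2 by 1.12 and Herpud1 by 0.85. The endoplasmic reticulum stress element, taken as CCAAT, 9 bases of any kind and CCACG on either strand, is known from such promoters. It is capitalised in those of Hspa5 and Creld2, and in Creld2 it lies on the opposite strand.
Hspa5: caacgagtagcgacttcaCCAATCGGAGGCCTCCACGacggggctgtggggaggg
Creld2: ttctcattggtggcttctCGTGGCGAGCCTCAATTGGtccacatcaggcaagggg
The letters CCAAT within it are those of the CCAAT box described further on, so both motifs overlap. They lie at chr2:34772007-34772061 and chr15:88819502-88819556 on GRCm38.p6, both on the plus strand. The element occurs in 8 of 17 list promoters, against 0.13% of all genes in the table. Of the 8 genes with it 3 rose, against 5 of the 9 without. Cytosolic heat shock proteins gave 2 of 13 higher, Hspa1b by 1.30 and Hspa1a by 0.86, and 1 lower, Hspb8 by 0.78. Among all genes 8.75% rose and 8.57% fell. Hspa1a and Hspa1b are nearly identical in sequence, so their probe sets may share signal. Of the heat shock list, 0 rose without CLA array 1, 0 without CLA array 2, 1 without control array 1 and 0 without control array 2. For its members that fell, 0 fell without CLA array 1, 0 without CLA array 2 and 0 without control array 1. Of the chaperones, 5 rose without CLA array 1 and 5 without control array 2. Pdia3 (1.17), Herpud1 (0.77), Hspa1b (1.41), Hspa1a (0.78) and Hspb8 (-0.71) missed the threshold without CLA array 1. Creld2 (0.99), Herpud1 (0.94), Hspa1b (1.19), Hspa1a (0.94) and Hspb8 (-0.85) missed the threshold without CLA array 2. Pdia3 (0.85), Herpud1 (0.79), Hspa1a (0.78) and Hspb8 (-0.75) missed the threshold without control array 1. Creld2 (0.90), Herpud1 (0.92), Hspa1b (0.90), Hspa1a (0.94) and Hspb8 (-0.81) missed the threshold without control array 2. Hspb8 (-0.59) missed the threshold with the mean of probe sets. Hspb8 (-0.84) missed the threshold with the most variable probe set.

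Of 16 targets of NRF2, the sensor of oxidative stress, 3 rose and 3 fell. Hmox1, haem oxygenase, read 8.51 and 7.51 on the CLA arrays, against 5.59 and 5.11 on the control arrays, a rise of 2.66. Srxn1 rose by 1.84 and Nfe2l2, the gene of NRF2 itself, by 1.00. Me1, malic enzyme, which feeds lipid synthesis, fell by 1.53, Aox1 by 1.47 and Abcc1 by 0.60. Glutathione transferases and peroxidases fell as a family, 12 of 19 with none higher (median -1.11). Gsta3 fell by 2.29, Gsta4, which clears lipid aldehydes, by 2.02, Gstz1 by 1.94, Gstm1 by 1.64, Gpx3 by 1.63 and Gstt1 by 1.45. Members of the Gsta and Gstm families resemble each other closely in sequence, so their probe sets may share signal. Cell death regulators gave 6 of 20 higher and 1 lower. Bcl2l11, the death factor BIM, read 9.57 and 9.27 on the CLA arrays, against 5.43 and 6.61 on the control arrays, a rise of 3.40. Its other and dimmer probe sets gave between 0.605 and 2.13. Casp1 rose by 2.15, Pmaip1 by 1.75, Apaf1 by 1.63 and the survival factor Mcl1 by 1.37, and Bcl2l2 fell by 0.86. Of the cell death list, 0 fell without CLA array 1, 2 without CLA array 2 and 0 without control array 2. Hmox1 (2.16) and Bcl2l2 (-0.69) missed the threshold without CLA array 1. Hmox1 (2.42) and Bcl2l2 (-0.79) missed the threshold without control array 2. Bcl2l2 (-0.20) missed the threshold with the mean of probe sets. Abcc1 (-0.74) missed the threshold with the most variable probe set.

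Cell cycle genes were higher on day 7, with a list median below that of day 4. Of 37 genes 28 rose and 2 fell (median 1.63). Mki67, the proliferation marker Ki-67, read 8.84 and 8.62 on the CLA arrays, against 6.29 and 5.46 on the control arrays, a rise of 2.85. Birc5, survivin, rose by 3.38, Ccnb2, cyclin B2, by 3.27, Rrm2, of DNA precursor synthesis, by 3.02 and Cdt1, which licenses replication, by 2.94. Cdkn2c, a kinase inhibitor of differentiated fat cells, fell by 1.21 and Ccnd2 by 1.11, though the 6 other probe sets of Ccnd2 ranged between -1.17 and 0.16. The CCAAT box is a known feature of mitotic promoters, and Ccnb2 and Cdk1 are shown with it, on either strand, in capitals.
Ccnb2: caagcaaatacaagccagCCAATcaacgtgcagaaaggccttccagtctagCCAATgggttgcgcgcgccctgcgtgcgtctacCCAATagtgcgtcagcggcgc
Cdk1: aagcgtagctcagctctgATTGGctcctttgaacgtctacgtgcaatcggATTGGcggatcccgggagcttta
They lie at chr9:70421555-70421659 and chr10:69352938-69353010 on GRCm38.p6, both on the minus strand, and hold 3 and 2 boxes. The box occurs in 21 of 31 list promoters, against 37.5% of all genes in the table. Of the 21 genes with it 18 rose, against 6 of the 10 without. Cdk1, the kinase of mitosis, named for this sequence, rose by 2.92. Of the members that fell, 0 fell without CLA array 1, 1 without CLA array 2 and 0 without control array 2. Cdkn2c (-1.22) and Ccnd2 (-1.0) missed the threshold without CLA array 1. Cdkn2c (-1.20) missed the threshold without CLA array 2. Cdkn2c (-1.13) missed the threshold without control array 1. Cdkn2c (-1.29) and Ccnd2 (-0.74) missed the threshold without control array 2. Ccnd2 (-0.67) missed the threshold with the mean of probe sets. Ccnd2 had the opposite sign (0.16) with the most variable probe set.

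Matrix lists are given beside the 8.75% of all genes that rose and the 8.57% that fell. Of 31 collagen and matrix genes 7 rose and none fell (median 0.21). Postn, periostin, rose by 1.20, Lum, lumican, by 1.17, Thbs1 by 1.08, and the collagen genes Col1a2, Col6a2 and Col5a2 by 0.71, 0.70 and 0.68. Col1a1 read 10.37 and 10.72 on the CLA arrays, against 10.01 and 10.01 on the control arrays and did not pass (difference 0.54 ± 0.68, adjusted p = 0.722). In crosslinking and processing 2 of 15 rose, Plod2, a collagen lysyl hydroxylase, by 2.12 and Pcolce by 0.97. Proteases and inhibitors had 9 of 22 higher and 4 lower. Beside Mmp12 and Adam8, Mmp13, a collagenase, rose by 3.12, and Adamts5 fell by 1.11. The inhibitors went apart: Timp1 read 7.19 and 7.56 on the CLA arrays, against 4.99 and 4.86 on the control arrays, a rise of 2.45, where Timp4 fell. The TGF-beta and activin family had 2 of 24 higher, Tgfb1 and its receptor gene Tgfbr1 (1.05), near the share of all genes that rose. It had 6 lower, among them Inhbb, an activin subunit of adipocytes, at -2.13, Bmp6 at -1.50 and Smad6 at -1.39. Of the collagen list, 3 rose without CLA array 2, 4 without control array 1 and 3 without control array 2. Of the crosslinking list, 1 rose without CLA array 2, 1 without control array 1 and 1 without control array 2. Of the TGF-beta members that rose, 1 rose without CLA array 1, 1 without CLA array 2 and 1 without control array 1. Of those that fell, 2 fell without CLA array 1, 3 without CLA array 2 and 2 without control array 2. Thbs1 (0.79), Timp1 (2.63) and Smad6 (-1.25) missed the threshold without CLA array 1. Col1a2 (0.55), Col6a2 (0.51), Col5a2 (0.54), Pcolce (0.56) and Timp1 (2.27) missed the threshold without CLA array 2. Col1a2 (0.77), Col6a2 (0.56), Pcolce (0.93), Adamts5 (-0.91) and Timp1 (2.52) missed the threshold without control array 1. Col1a2 (0.67), Col6a2 (0.83), Col5a2 (0.56), Pcolce (1.02), Timp1 (2.38) and Smad6 (-1.23) missed the threshold without control array 2. Col6a2 (0.59) missed the threshold with the mean of probe sets. Timp1 (2.45) missed the threshold with trend and robust moderation. Col6a2 (0.48) and Col5a2 (0.88) missed the threshold with the most variable probe set.

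Vessel genes were lower. Of 20 genes of endothelium and of factors that act on it, 14 fell and 1 rose (median -1.45). Cdh5, the cadherin of endothelial junctions, read 4.70 and 3.79 on the CLA arrays, against 6.44 and 6.91 on the control arrays, a fall of 2.43. Gpihbp1, which anchors lipoprotein lipase in capillaries, fell by 1.83 and Emcn by 1.57. Angpt1 fell by 1.99 and Vegfa by 1.60, but these encode secreted factors that act on endothelium and are not markers of it. Angpt2, the antagonist of Angpt1 that loosens vessels, read 6.56 and 6.54 on the CLA arrays, against 5.02 and 5.06 on the control arrays, a rise of 1.51. Of 15 pericyte and smooth muscle genes 8 fell and none rose (median -0.96): Mcam by 2.62, Rgs5 by 1.75, Kcnj8 by 1.39, Acta2 by 1.33, Abcc9 by 1.30 and Cspg4 by 1.18. Of the pericyte list, 5 fell without control array 2. Cspg4 (-1.01) missed the threshold without CLA array 1. Cspg4 (-1.04) missed the threshold without control array 2. Cspg4 (-0.87) missed the threshold with the mean of probe sets. Rgs5 (-0.70) missed the threshold with the most variable probe set.

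Progenitor and fibroblast genes gave 1 of 20 higher, Icam1 by 1.37, and 4 lower, with a median of -0.09. Among all genes 8.75% rose and 8.57% fell. Zfp423, a factor of preadipocyte commitment, fell by 1.86, Sfrp5, an inhibitor of Wnt signals, by 1.53, Cd55 by 0.72 and Dpt by 0.47. The defining markers Pdgfra, Dpp4 and Pi16 did not pass. Clock genes had 3 of 18 lower, Nr1d1 by 1.64, Cry2 by 1.25 and Clock by 0.73, and none higher, against 8.57% of all genes that fell. In glucocorticoid activation and response 2 of 14 rose, Mt2 by 1.42 and Sgk1 by 0.98, and 3 fell. Hsd11b1, which regenerates active glucocorticoid in fat, read 7.75 and 8.10 on the CLA arrays, against 11.18 and 10.91 on the control arrays, a fall of 3.12 (adjusted p = 3.12e-09), and Nr3c2 and Fkbp5 fell by 1.19 and 0.90. Of the clock list, 1 rose without control array 1. Of the glucocorticoid list, 1 rose without CLA array 2. Of the progenitor list, 1 fell without CLA array 1, 2 without control array 1 and 1 without control array 2. Sfrp5 (-1.41), Cd55 (-0.63), Dpt (-0.34) and Nr1d1 (-1.52) missed the threshold without CLA array 1. Cd55 (-0.81), Nr1d1 (-1.75) and Sgk1 (0.90) missed the threshold without CLA array 2. Cd55 (-0.56) and Dpt (-0.55) missed the threshold without control array 1. Sfrp5 (-1.34), Cd55 (-0.88), Dpt (-0.39) and Nr1d1 (-0.93) missed the threshold without control array 2. Dpt (-0.47) missed the threshold with the day 7 arrays alone. Cd55 (-0.57) missed the threshold with the mean of probe sets. Dpt (-0.39) missed the threshold under quantile normalisation. Dpt (-0.47) missed the threshold with the replicate block within each day. Cd55 (-0.46) missed the threshold with the most variable probe set.

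Markers of tissues that adjoin the pad or could be carried with it were examined as well. No gene of 13 for mesothelium, 11 for kidney, 8 for exocrine pancreas or 5 for red cells passed. Upk3b, a mesothelial marker, read 7.91 and 8.39 on the CLA arrays, against 8.66 and 9.10 on the control arrays. Aqp2, the water channel of kidney collecting ducts, read 4.29 and 4.48 on the CLA arrays, against 4.45 and 4.40 on the control arrays. Mesothelial Upk3b was thus well above the array median of 4.1 to 4.2 in both diets, and Aqp2 lay near it. Gpm6a, also mesothelial, read 7.79 and 7.63 on the CLA arrays, against 8.41 and 7.97 on the control arrays, and Slc12a3, a kidney salt transporter, read 4.28 and 4.26 on the CLA arrays, against 4.47 and 4.45 on the control arrays. Of the pancreas genes Cela1, an elastase, read 8.19 and 8.22 on the CLA arrays, against 8.06 and 7.98 on the control arrays and Cela3b read 5.16 and 5.13 on the CLA arrays, against 5.39 and 5.22 on the control arrays. Of the red cell genes Alas2, of haem synthesis, read 7.64 and 8.04 on the CLA arrays, against 8.65 and 8.89 on the control arrays. Red cell and pancreas genes thus differed by less than 1 between the diets. Of 12 adrenal genes only Mc2r, which adipocytes also express, passed, while Pnmt read 6.29 and 6.29 on the CLA arrays, against 6.54 and 6.01 on the control arrays. Of 8 nerve genes Cnp rose by 0.61, and Pmp22 read 11.02 and 11.18 on the CLA arrays, against 11.35 and 11.01 on the control arrays. Of the mesothelial list, 2 fell without control array 2. Of the adrenal list, 2 fell without CLA array 2. Of the nerve list, 0 rose without CLA array 2, 0 without control array 1 and 0 without control array 2. Cnp (0.44) missed the threshold without CLA array 2. Cnp (0.66) missed the threshold without control array 1. Cnp (0.57) missed the threshold without control array 2. Cnp (0.61) missed the threshold with the day 7 arrays alone. Cnp (0.33) missed the threshold with the mean of probe sets. Cnp (0.58) missed the threshold under median centring. Cnp (0.21) missed the threshold with the most variable probe set.

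**Figure D4:**
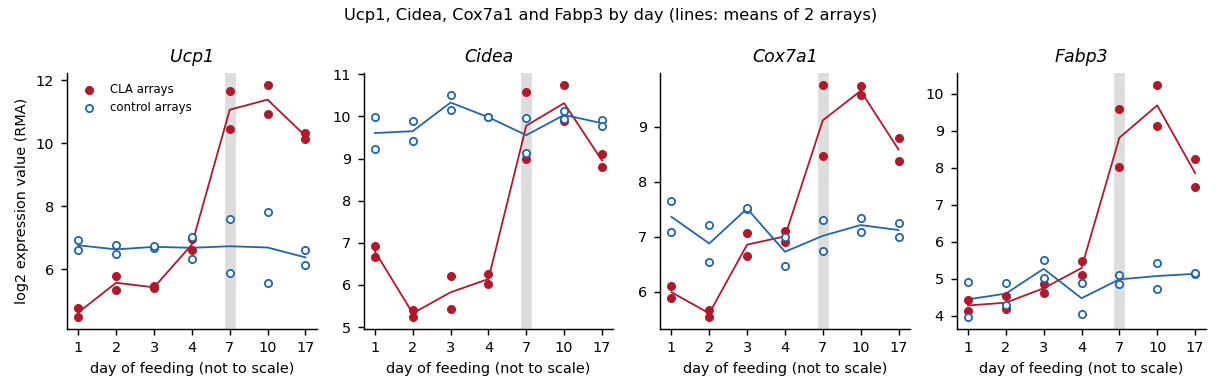
Log2 values of Ucp1, Cidea, Cox7a1 and Fabp3 on the 7 days sampled (the x axis shows days in order and not to scale). Filled points are CLA arrays, open points control arrays, lines join the means of 2 arrays, and the grey band marks day 7, the first day on which the CLA values of Ucp1 and Cox7a1 both lie above both control values.

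The CLA effect of day 7 was then set against the mean of its effects on the 6 other days, which share no arrays with it. This contrast called 31 genes (0.17% of those tested), 28 higher (0.154%) and 3 lower (0.0165%). The largest positive departure was that of Ucp1, at 3.64. Its CLA minus control difference was -2.13, -1.06 and -1.28 on days 1 to 3, 0.10 on day 4, 4.33 on day 7, 4.70 on day 10 and 3.85 on day 17. Day 7 was the first sampled day on which both CLA arrays lay above both control arrays for Ucp1, and on days 10 and 17 they did so too. Cidea departed by 2.90 in a different way. It was far lower in CLA on days 1 to 4, with differences of -2.81, -4.33, -4.50 and -3.84, and was level with control on day 7 at 0.23 and on day 10 at 0.28, with -0.89 on day 17. Fabp3, a fatty acid carrier of muscle and brown fat, departed by 2.62 and Cox7a1 by 1.95. Fabp3 read 8.02 and 9.60 on the CLA arrays, against 4.87 and 5.10 on the control arrays, a rise of 3.83, though a dimmer probe set gave -0.20. Ucp1, Cidea, Fabp3 and Cox7a1 missed the threshold of this contrast without CLA array 2. Cidea, Fabp3 and Cox7a1 missed the threshold of this contrast without control array 1. Ucp1, Fabp3 and Cox7a1 missed the threshold of this contrast without control array 2. With the mean of probe sets, Fabp3 missed the threshold of this contrast as well. Over all settings tried the departures were Ucp1 2.78 to 4.49, Cidea 2.10 to 3.71, Fabp3 1.28 to 3.41 and Cox7a1 1.31 to 2.60.

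Positive departures were also found for genes of macrophages and other leukocytes, and the 6 named here had differences above 0 on days 3 and 4 as well. Atp6v0d2 departed by 2.27, Ubd by 2.13, Gpnmb by 2.02, Clec7a by 2.00, Arhgap25, a Rac regulator of leukocytes, by 1.84 and Rnf180, a ubiquitin ligase, by 1.62. Clec7a differed between the diets by 0.49 on day 3, 1.75 on day 4, 3.94 on day 7, 4.00 on day 10 and 4.09 on day 17. The later days were also close to day 7 for Atp6v0d2, at 6.19 on day 10 and 6.03 on day 17, for Gpnmb, at 5.89 and 5.38, and for Arhgap25, at 4.60 and 4.42, so differences of this size were also found after day 7. The negative departures were Car4, a capillary carbonic anhydrase, at -1.78, and the heat shock genes Hspa1a at -1.47 and Hsph1 at -0.93. Hspa1a had its largest difference, 5.84, on day 1, against 0.86 on day 7. Hsph1 also had its largest, 3.73, on day 1, against 0.105 on day 7, 0.185 on day 10 and -0.22 on day 17. Car4 fell further on day 7, at -2.19, than on day 4, at -0.86, or day 10, at -1.15. Atp6v0d2, Gpnmb, Clec7a, Arhgap25, Hspa1a and Hsph1 missed the threshold of this contrast without CLA array 1. Atp6v0d2, Ubd, Gpnmb, Clec7a, Arhgap25, Car4, Hspa1a and Hsph1 missed the threshold of this contrast without CLA array 2. Atp6v0d2, Ubd, Gpnmb, Arhgap25, Hspa1a and Hsph1 missed the threshold of this contrast without control array 1. Atp6v0d2, Car4 and Hspa1a missed the threshold of this contrast without control array 2. With the most variable probe set, Hspa1a and Hsph1 missed the threshold of this contrast. Hsph1 also missed it without dim genes and with the mean of probe sets. Over all settings tried the departures were Atp6v0d2 2.12 to 2.48, Ubd 1.99 to 2.26, Gpnmb 1.50 to 2.17, Clec7a 1.83 to 2.18, Arhgap25 1.34 to 1.92, Car4 -2.00 to -1.57, Hspa1a -1.56 to -1.39 and Hsph1 -1.11 to -0.52. The count itself was 10 without CLA array 1, 3 without CLA array 2, 8 without control array 1, 55 without control array 2 and 48 without array 1 of the control group of day 2.

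**Figure D5:**
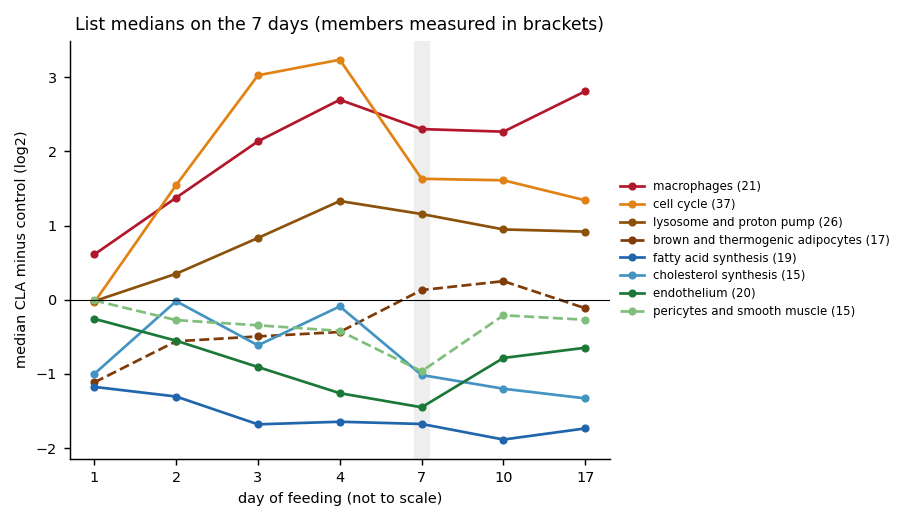
Median CLA minus control difference (log2) over the measured members of 8 gene lists on each day sampled (days in order, not to scale), with the number of members in brackets and day 7 marked by the grey band. The cell cycle median is 3.23 on day 4 and 1.63 on day 7, and the endothelial and pericyte medians are lowest on day 7. No member of the endothelial or pericyte list passed when the CLA effect of day 7 was set against the other days, day 4 or day 10.

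Against day 4, the last day sampled before it, day 7 differed in 20 genes (0.11%), 5 higher (0.0275%) and 15 lower (0.0824%). Plk1, the polo kinase, differed by -2.75, with CLA minus control differences of 3.34 on day 4 and 0.58 on day 7. Cdca8 differed by -2.04, Tacc3 by -2.04 and Cenpi by -2.02, all of the mitotic spindle or centromere. The probe sets of Cdca8 differ in size on day 7, at 1.40 for the one used and 3.07 and 0.82 for the others. Of the 37 listed cell cycle genes, 2 passed in this contrast and the median difference between the days was -1.51. Higher on day 7 than on day 4 were Ucp1 at 4.23, Cidea at 4.07, Clec7a at 2.19 and Rnf180 at 1.69. The cholesterol synthesis list had medians of -1.0, -0.02, -0.61 and -0.09 on days 1 to 4, -1.01 on day 7, -1.20 on day 10 and -1.33 on day 17, with Idi1 the member that passed, at -1.23. Clec7a missed the threshold of this contrast without CLA array 1. Ucp1, Clec7a, Rnf180, Cdca8, Tacc3 and Cenpi missed the threshold of this contrast without CLA array 2. Clec7a, Rnf180, Cidea, Cdca8, Tacc3 and Cenpi missed the threshold of this contrast without control array 1. Ucp1, Clec7a, Tacc3 and Cenpi missed the threshold of this contrast without control array 2. Without dim genes, Ucp1, Clec7a and Cdca8 missed the threshold of this contrast. With the most variable probe set, Ucp1, Clec7a, Cdca8 and Cenpi missed it. With the mean of probe sets, Rnf180, Cdca8 and Tacc3 missed it. Ucp1 missed it with trend and robust moderation, and Cenpi under quantile normalisation. Over all settings tried the departures were Ucp1 3.38 to 5.08, Clec7a 2.02 to 2.37, Rnf180 0.67 to 1.79, Cidea 3.27 to 4.87, Cdca8 -2.37 to -1.39, Tacc3 -2.21 to -0.92 and Cenpi -2.40 to -1.65. The count was 17 without CLA array 1, 2 without CLA array 2, 3 without control array 1, 14 without control array 2 and 61 without array 1 of the control group of day 2.

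Against day 10, the next day sampled, limma called 0 genes (0%), with 549 at an unadjusted p under 0.05 and a lowest adjusted p of 0.106. It called 1 gene without CLA array 1 and 1 without control array 2. The same 0 (0%) held for control fat on day 7 against the mean of the other control days, where 376 genes had an unadjusted p under 0.05, although without control array 2 that contrast called 61 genes, 2 higher and 59 lower. CLA fat on day 7 differed from the mean of the other CLA days in 354 genes (1.95%), 237 higher (1.3%) and 117 lower (0.643%), and in 49 without CLA array 1 and 87 without CLA array 2. The CLA shift of Ucp1 against its other days was 3.73 and its control shift 0.09, and for Cidea the CLA shift was 2.55 and the control shift -0.35.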

How the data were processed

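RNA of retroperitoneal fat was extracted with Trizol, and 15 µg of total RNA was turned into biotin-labelled cRNA for one-colour Affymetrix arrays, per the labels' protocols. The authors deposited log2 values made with RMA, per the submitters' processing notes; its version is not given in the sources used here, and the values range from 1.9 to 14.18. No count or depth lies behind an array value, so precision is set by how few arrays there are.

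Of 45101 probe sets, 34958 name 1 gene in the platform annotation, 932 several and 9211 none, the 64 array controls being left out; 34754 of the named were matched to RefSeq by gene ID. Each of 18193 genes was represented by its brightest probe set, by the mean of all 28 arrays. Differences were tested two-sided with limma 3.58.1 (R 4.3.3) in one model of the 14 groups of diet and day, with 14 residual degrees of freedom and no replicate block, and p-values were adjusted by Benjamini-Hochberg over all genes with a threshold of 0.05. Further contrasts set day 7 against the mean of the 6 other days, day 4 and day 10, and each diet's day 7 against its own other days.

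The members and the 56 gene lists (1075 entries, 993 measured) were chosen with earlier results of these data known. Named genes are the 10 largest rises and falls, up to 6 called members of each list, the leading genes of the contrasts between days, a set of standard genes and the cell type markers. Alternatives were median centring, quantile normalisation, a minimum mean of 5, other choices of probe set, trend and robust moderation, array weights, the replicate block, the day 7 arrays alone, each day 7 array left out, control array 1 of day 2 left out, and stricter thresholds. A lone array was then assumed to vary like the other groups. The procedure was tested on simulated data. Promoters are RefSeq sequences, with motifs searched on both strands of the 250 bases before each start, and figures were drawn with matplotlib 3.10.9 (Python 3.11.15).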

Additional observations from a re-analysis of the deposited data

Results flagged for a closer look

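The CLA effect of day 7 departed from its mean over the 6 other days in 31 genes, by a test of the difference itself. The departures, in log2 units, were Ucp1 3.64, Cidea 2.90, Fabp3 2.62, Atp6v0d2 2.27, Ubd 2.13, Gpnmb 2.02, Clec7a 2.00, Cox7a1 1.95, Arhgap25 1.84 and Rnf180 1.62 upward. Downward they were Car4 -1.78, Hspa1a -1.47 and Hsph1 -0.93.

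The effect of day 7 departed from that of day 4 in 20 genes, by the same kind of test. The leading upward differences were Ucp1 4.23, Cidea 4.07, Clec7a 2.19 and Rnf180 1.69. The leading downward differences were Plk1 -2.75, Cdca8 -2.04, Tacc3 -2.04 and Cenpi -2.02.

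Probe sets that name no single gene were in none of the comparisons above. Of 10092 such probe sets, 369 (3.66%) changed on day 7 (limma, adjusted over them), 202 of them higher and 167 lower in CLA. The share among the genes tested was 17.3%. With 2 arrays in a group no array was tested as an outlier.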

How the results depend on the processing

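Of 278 named genes called on day 7, 254 kept direction and call in every setting that held both arrays of each diet, 207 in every setting, and 69 lost the call when a day 7 array was left out. The count of changed genes on day 7 was 1782 with a 2-fold minimum and 2094 to 3256 with an array left out. Against the other days it was 20 without dim genes, 49 with the mean of probe sets, 58 with array weights and 3 to 55 with an array left out. Against day 4 it was 2 without dim genes, 13 with the most variable probe set, 61 with array weights and 2 to 61 with an array left out. Against day 10 it was 2 with trend and robust moderation and 0 to 1 with an array left out. Control fat of day 7 against its other days gave 0 to 61 with an array left out. CLA fat of day 7 gave 643 with array weights and 49 to 478 with an array left out. The cause was not tested, save that fewer arrays or genes enter some settings. The list medians of resident macrophages (0.03) and nerve (0.02) turned to -0.01 and -0.02 under median centring, and that of B and plasma cells (-0.01) turned to 0.03 under quantile normalisation. Ccnd2, at -1.11, was 0.16 with its most variable probe set. Actb, at 1.26, was -2.31 with its most variable probe set and -0.525 with the mean of its probe sets. Of 299 named genes, 130 had a further probe set. For 52 of these, a further probe set differed by more than 1 on the log2 scale from the one used. Dimmer probe sets gave 1.515 for Arhgap25, 0.07 for Angpt2, -0.685 for Oxtr and -0.46 for Inhbb.

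The replicate numbers were not used to pair the arrays, because day 7 lies under the correlation of 0.1 required. Deviations of same-numbered arrays of the diets correlated at 0.566, 0.490, 0.228 and 0.114 on days 1, 2, 3 and 4. On days 7, 10 and 17 they correlated at 0.0977, 0.345 and 0.101. All these values lie above 0, and day 7 is the only day under 0.1. With the replicate block over all days the counts were 3640 on day 7, 55 against the other days, 38 against day 4, 0 against day 10, 0 for control fat and 541 for CLA fat. With the replicate block within each day they were 4349, 96, 104, 1, 0 and 444 in the same order.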

Other observations

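The genes named here were picked after their values were seen, so they speak for themselves and not for the families they belong to. Sucnr1, the succinate receptor, read 6.94 and 6.94 on the CLA arrays, against 9.45 and 9.42 on the control arrays, a fall of 2.50. Tshr, the thyrotropin receptor, fell by 2.48, Ffar4, a receptor of long-chain fatty acids, by 2.23 and Cmklr1, the chemerin receptor, by 2.21. Rbp4, the retinol carrier, read 9.73 and 9.01 on the CLA arrays, against 11.95 and 12.21 on the control arrays. The carboxylesterase genes Ces1f and Ces1d fell by 3.06 and 2.39, Slc2a5, the fructose transporter, by 2.60 and Nos3, endothelial nitric oxide synthase, by 2.63. Members of the Ces1 family resemble each other in sequence. Of homeobox genes, Hoxc5 fell by 2.27, Hoxc8 by 1.84 and Hoxc10 by 1.50. Dimmer probe sets gave -0.5 for Cmklr1, -0.76 and -0.105 for Hoxc5, and -2.13 and -1.565 for Ces1d.

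Other genes picked in the same way were higher. C3ar1, the receptor of complement fragment C3a, read 11.32 and 11.33 on the CLA arrays, against 7.32 and 7.68 on the control arrays, a rise of 3.83, and C5ar1 rose by 2.51. Of the Cd300 family of receptors, Cd300lb rose by 4.40, Cd300c2 by 4.04 and Cd300a by 3.80. The nucleotide receptor genes P2ry14, P2ry6 and P2rx7 rose by 3.30, 2.82 and 1.92. Cd44, the hyaluronan receptor, rose by 3.71, Nceh1, a cholesteryl ester hydrolase of macrophages, by 4.56, Kcnn4, a potassium channel, by 3.05 and Itgb2, the common chain of leukocyte integrins, by 2.96. Stab2, a scavenger receptor, read 5.74 and 6.12 on the CLA arrays, against 3.39 and 3.46 on the control arrays, and Htr2b, a serotonin receptor, read 6.20 and 5.48 against 3.14 and 3.26. For each of these genes the CLA and control values did not overlap, with an adjusted p under 0.05 by limma. Dimmer probe sets gave 0.59 for Cd300a, 2.395 and 0.135 for P2rx7, and 3.25, 3.605 and 0.07 for Cd44. Those of C3ar1, C5ar1, Nceh1 and Kcnn4 gave between 1.545 and 4.215.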
